A study of Mus musculus with 6 samples.

Results

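Matrix metalloproteinases (Mmp), the membrane-bound and secreted ADAM proteases (Adam, Adamts) and their natural inhibitors (Timp) were examined in brown adipose tissue of wild type and Cd36 null mice. All array probes were taken whose annotated symbol was Mmp, Timp, Adam or Adamts followed by a number, with Mmp12 left out. This gave 73 genes with 147 probes, among 19056 genes and 45267 probes in all. They comprised 20 Mmp genes, 4 Timp genes, 32 Adam genes and 17 Adamts genes. The mice were C57BL6J males of 3 months, fasted overnight, either wild type or Cd36 null, and each genotype was measured on 3 1-colour Illumina bead arrays. CD36 is a cell surface receptor through which adipocytes import fatty acids. The labels do not state that each array stands for its own mouse, and p-values reflect the array-to-array spread, which could be technical in part.

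Matrix metalloproteinases are zinc enzymes that cut collagens and other matrix proteins and are made as inactive precursors. The membrane-anchored enzyme MMP14, together with the inhibitor TIMP2, activates the precursor of MMP2 at the cell surface. ADAM proteins shed receptors and growth factors from cell membranes or act in cell adhesion, and ADAMTS enzymes are secreted and cut proteoglycans, procollagens and related proteins. In fat these families take part in remodelling the matrix around growing or shrinking adipocytes.

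Values are the authors' log2 values, on which differences of dim probes are shrunk, and differences are Cd36 null minus wild type. Values by array follow the order of replicates 1, 2 and 3. A probe counted as detected on an array when its detection p was under 0.05, and probes detected on at least 3 of the 6 arrays were tested. "Rose" and "fell" mean an adjusted p under 0.05 in limma, over all 17912 tested probes. The 1 annotated probe of Cd36 was detected on 1 of 3 wild type and 0 of 3 null arrays, so it gave no check of the genotype labels. Of 8 brown adipocyte markers, all 8 were tested, Ucp1 differed by -0.12 (adjusted p = 0.618), and Pparg and Prdm16 fell by 0.63 and 0.59 log2. Liver transcripts stood highest on null replicate 1 and skeletal muscle transcripts lowest on null replicate 3. The mean log2 level of 9 liver markers was 6.68, 6.79 and 7.39 on the wild type arrays and 10.36, 8.23 and 8.50 on the null arrays. For 9 muscle markers it was 12.53, 12.47 and 12.52 on the wild type arrays and 13.03, 12.48 and 10.58 on the null arrays.

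In Cd36 null tissue 6 of the 73 genes rose and 1 fell. The genes that rose were Mmp2, Mmp14, Timp1, Timp2, Adam23 and Adamts12, by 0.84 to 1.25 log2, and Adamts9 fell by 0.77 log2 on 1 of its 2 tested probes. Counted in probes, 41 of the 147 were tested, 7 rose, 1 fell and 33 did not pass. Of all tested probes 5.36% rose and 2.85% fell. With array medians aligned at an offset of 50, which the authors' values match, the split over all probes was 1508 higher and 247 lower in place of 960 and 510, and 9 member probes rose and 1 fell. At an offset of 16 the same alignment gave 1359 higher and 228 lower, with 8 and 1 member probes. The median difference of all tested probes was -0.04 log2 in the authors' values and 0.08 with only the medians aligned, at either offset. The median difference was 0.002 over all 147 member probes and -0.006 over all probes of the table, and it was 0.005 over the 41 tested member probes against -0.04 over all tested probes. The null arrays lay wholly above the wild type arrays for 11 of the 41 probes, where 13.6% of all tested probes did so, and wholly below them for 3, where 13.8% did. A probe detected mainly in null tissue entered the tests because it was high there, so these counts describe the tested probes only.

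**Figure D1:**
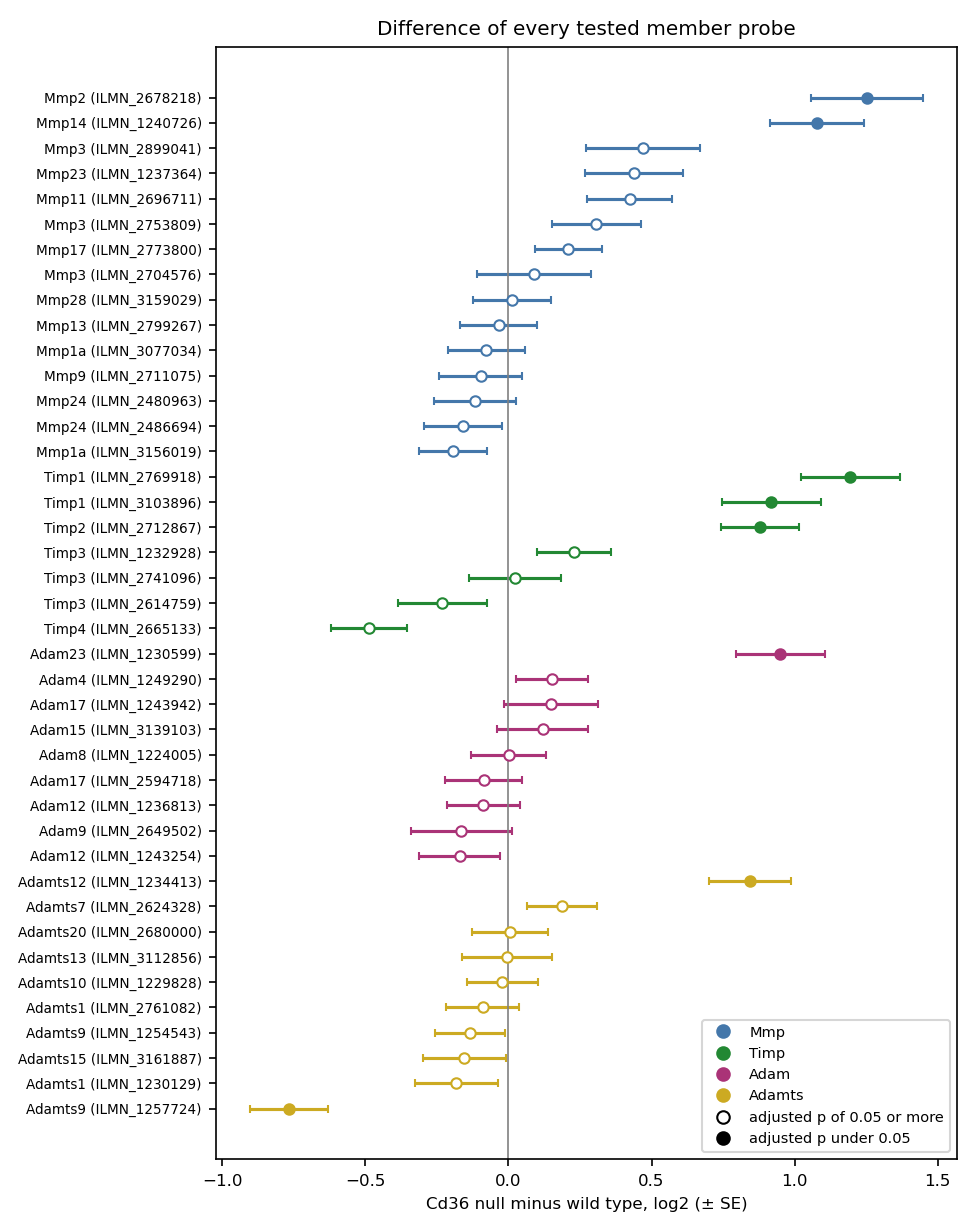
Difference between Cd36 null and wild type tissue for each of the 41 tested member probes, in log2 units (x axis) with the moderated standard error, grouped by family (colour). Filled points passed an adjusted p of 0.05: 7 lie between 0.84 and 1.25 and 1, for Adamts9, lies at -0.77, while the open points lie between -0.49 and 0.47.

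Mmp2, gelatinase A, which cuts denatured collagen and basement membrane collagen, rose in null tissue. Its only probe read 9.18, 9.26 and 9.80 log2 on the wild type arrays and 10.7, 10.9 and 10.4 on the null arrays. The lowest null array lay above the highest wild type array, which was replicate 3. The wild type mean was 9.41 ± 0.33 and the null mean 10.67 ± 0.28 (SD, n = 3), a difference of 1.25 ± 0.20 (SE) or 2.38-fold (adjusted p = 0.00424). The unnormalised intensities were 557, 671 and 912 in wild type and 1855, 2071 and 1424 in null tissue.

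Mmp14, the membrane-type metalloproteinase MT1-MMP, rose as well. Its bright probe read 8.94, 8.80 and 8.72 on the wild type arrays and 10.25, 9.72 and 9.73 on the null arrays. Null replicate 1, the array with the highest liver level, was the highest, and the genotypes did not overlap. The difference was 1.08 ± 0.16 (SE) or 2.11-fold (adjusted p = 0.00349), and 0.90 without null replicate 1 (adjusted p = 0.00342). A second probe of Mmp14 was detected on 1 of 6 arrays and was not tested.

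Timp2, the inhibitor that links MMP14 to the precursor of MMP2, rose too. Its probe read 9.55, 9.62 and 9.93 on the wild type arrays and 10.65, 10.55 and 10.53 on the null arrays. The null arrays lay close together, and the wild type arrays spread more widely, with replicate 3 highest. The difference was 0.88 ± 0.14 (SE) or 1.84-fold (adjusted p = 0.00389). Thus Mmp2, Mmp14 and Timp2 each had all 3 null arrays above all 3 wild type arrays.

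Timp1, a soluble inhibitor of many metalloproteinases, rose on both of its probes. The first, ILMN_2769918, read 5.88, 5.96 and 6.05 in wild type and 7.10, 6.85 and 7.53 in null tissue. It was detected on 0 of 3 wild type and 3 of 3 null arrays, so the size is a bound. Setting the null mean against the higher of the lowest detected signal and the probe's own, Timp1 was at least 2.09-fold higher. That bound takes no account of the spread between arrays. The measured means were 5.96 ± 0.09 and 7.16 ± 0.34 (SD, n = 3), a difference of 1.20 log2 (adjusted p = 0.00258). The second probe, ILMN_3103896, read 6.09, 6.27 and 6.74 in wild type and 7.19, 7.25 and 7.42 in null tissue. With 2 of 3 wild type arrays above background, it differed by 0.92 ± 0.17 (SE, adjusted p = 0.0102), and leaving out wild type replicate 2 ended its call (adjusted p = 0.0625). With the intensities renormalised by neqc and an offset of 16, the differences were 1.96 and 1.35. In RefSeq Timp1 lies on chromosome X over Syn1 and Timp2 on chromosome 11 over Cep295nl, both protein-coding genes. Mmp2 lies on chromosome 8, where the lncRNA gene Gm45472 overlaps it, and Mmp14 on chromosome 14.

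**Figure D2:**
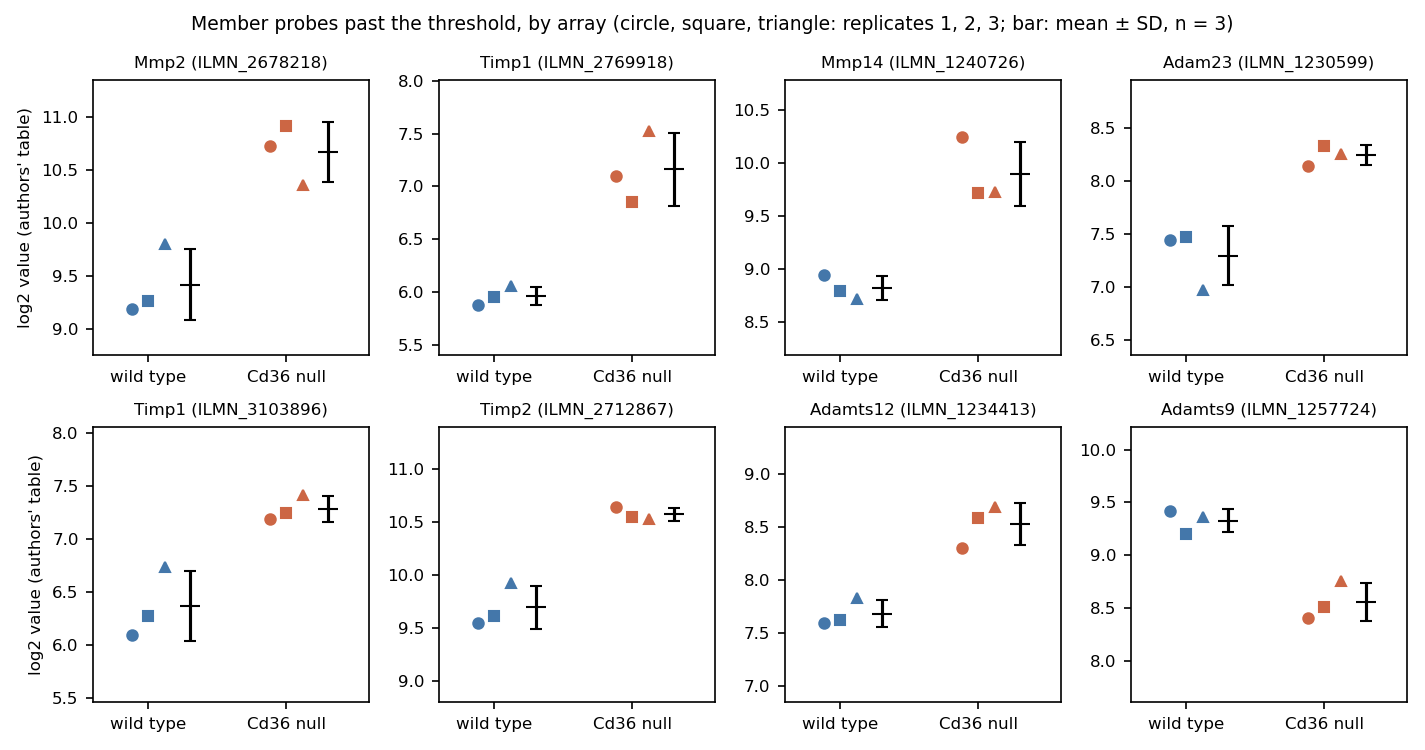
Log2 values of the 8 member probes past the threshold on each of the 6 arrays, with a separate y axis per probe. Symbols mark replicates 1 to 3, and the bar is the mean ± SD (n = 3). The genotypes do not overlap in any panel, and wild type replicate 3 is the highest wild type array for 5 of the 7 probes that rose.

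The other inhibitors did not pass. Timp3, which binds to the matrix and also inhibits ADAM17 and aggrecanases, had 3 tested probes with differences of -0.23, 0.02 and 0.23. The probe at 0.23, ILMN_1232928, was detected on 0 of 3 wild type and 3 of 3 null arrays and did not pass (adjusted p = 0.350). Its null mean was at least 1.05-fold higher, a bound that takes no account of the spread between arrays. Timp4, an inhibitor found in heart and fat, read 9.37, 9.38 and 9.54 in wild type and 9.08, 8.998 and 8.75 in null tissue. All null arrays of Timp4 lay below all wild type arrays, and the difference of -0.49 ± 0.13 (SE) did not pass (adjusted p = 0.0528). It passed without null replicate 1 (adjusted p = 0.0480), without background correction (adjusted p = 0.0363) and with array weights (adjusted p = 0.0231).

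Among the remaining Mmp genes none passed. Mmp3, stromelysin 1, had 3 tested probes at 0.09, 0.31 and 0.47. The probe of largest difference, ILMN_2899041, read 6.67, 6.98 and 7.46 on the wild type arrays and 7.31, 7.48 and 7.73 on the null arrays. Wild type replicate 3 reached into the null range on that probe (adjusted p = 0.205), which passed without that array (difference 0.68, adjusted p = 0.0474). Mmp11, stromelysin 3, read 6.01, 6.14 and 6.48 in wild type and 6.54, 6.75 and 6.61 in null tissue. Its genotypes did not overlap, and the difference of 0.42 ± 0.15 (SE) did not pass (adjusted p = 0.124). With array medians aligned the difference of Mmp11 was 0.55 at an offset of 50 and 0.90 at an offset of 16, and passed at both (adjusted p = 0.0407 and 0.0346). With neqc and an offset of 16 it was 0.73 and did not pass (adjusted p = 0.104), and it passed without wild type replicate 3 (adjusted p = 0.0430). Mmp23, a small membrane-type member, differed by 0.44 ± 0.17 (SE, adjusted p = 0.168) with wild type replicate 3 inside the null range, and passed with medians aligned at an offset of 50 (difference 0.62, adjusted p = 0.0434). With array weights Mmp11, Mmp23 and 2 probes of Mmp3 passed (adjusted p = 0.0199, 0.0234, 0.0403 and 0.0426).

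Mmp17, a glycolipid-anchored member, differed by 0.21 (adjusted p = 0.341) without overlap. Mmp9, gelatinase B, which neutrophils and macrophages carry, differed by -0.10 ± 0.14 (SE, adjusted p = 0.764). Mmp1a, an interstitial collagenase, had probes at -0.20 and -0.08, and Mmp24, a membrane-type member, had probes at -0.16 and -0.12. The collagenase Mmp13 and the epilysin Mmp28 differed by -0.03 and 0.01 on their tested probes and stood near background. An untested Mmp13 probe, detected on 2 of 3 wild type and 0 of 3 null arrays, differed by -0.29. An untested Mmp28 probe, detected on 0 of 3 wild type and 2 of 3 null arrays, differed by 0.22. Their remaining probes were detected on no array. Mmp7, Mmp8, Mmp10, Mmp16, Mmp19, Mmp1b, Mmp20, Mmp21 and Mmp25 had no tested probe, which says that they were too dim to be tested on these arrays, not that they are absent.

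Of 32 Adam genes, 7 had a tested probe and 1 rose. Adam23, a member without protease activity that binds integrins and LGI proteins, read 7.44, 7.48 and 6.98 on the wild type arrays and 8.15, 8.34 and 8.26 on the null arrays. Here wild type replicate 3 was the lowest array, and the genotypes did not overlap. The difference was 0.95 ± 0.16 (SE) or 1.93-fold (adjusted p = 0.00535). A second probe of Adam23 was detected on 1 of 6 arrays.

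The sheddases of the Adam family gave smaller differences, none of which passed. Adam17, which releases tumour necrosis factor and ligands of the epidermal growth factor receptor, had probes at -0.09 ± 0.13 and 0.15 ± 0.16 (SE, adjusted p = 0.772 and 0.665). Adam9 differed by -0.16 ± 0.18 (adjusted p = 0.652) and Adam15 by 0.12 ± 0.16 (adjusted p = 0.731), each on 1 tested probe. Adam12, known from muscle and from fat cell formation, had probes at -0.17 and -0.09, and Adam8, a leukocyte member, stood near background with a difference of 5.3e-05. Adam4 had 1 tested probe at 0.15 and others detected on 1 and 0 of 6 arrays. The sheddase Adam10 had 2 probes, detected on 0 and 2 of 6 arrays, and was not tested.

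The other 24 untested Adam genes include many known in the mouse from testis and sperm, such as Adam2, Adam3, Adam5 and Adam18. Those untested were Adam11, Adam18, Adam1b, Adam2, Adam20, Adam21, Adam22, Adam24, Adam25, Adam26a, Adam26b, Adam28, Adam29, Adam3, Adam30, Adam32, Adam33, Adam34, Adam34l, Adam39, Adam5, Adam6a, Adam6b and Adam7. Over all 147 member probes, 26 were detected on all 6 arrays, 79 on none and 27 on 1 or 2.

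Of 17 Adamts genes, 8 had a tested probe, 1 rose and 1 fell. Adamts12, which cuts cartilage oligomeric matrix protein, read 7.60, 7.62 and 7.83 on the wild type arrays and 8.31, 8.59 and 8.69 on the null arrays. Every null array lay above every wild type array. The difference was 0.84 ± 0.14 (SE) or 1.80-fold (adjusted p = 0.00603), and 2 further probes of Adamts12 were detected on 0 and 1 of 6 arrays.

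Adamts9, which cuts the proteoglycans versican and aggrecan, read 9.41, 9.21 and 9.36 on the wild type arrays and 8.41, 8.51 and 8.76 in null replicates 1 to 3 on probe ILMN_1257724. All null arrays lay below all wild type arrays, a difference of -0.77 ± 0.14 (SE) or 1.70-fold lower (adjusted p = 0.00760). The other tested probe, ILMN_1254543, differed by -0.13 ± 0.12 (SE, adjusted p = 0.592) with overlapping genotypes. The annotation lists a RefSeq transcript for the second probe and none for the probe that fell. Which transcript the probe that fell reads was not analysed here. In RefSeq Adamts9 lies on chromosome 6 and is overlapped by the lncRNA genes Gm52913, A730049H05Rik, Gm15737 and 9530026P05Rik.

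**Figure D3:**
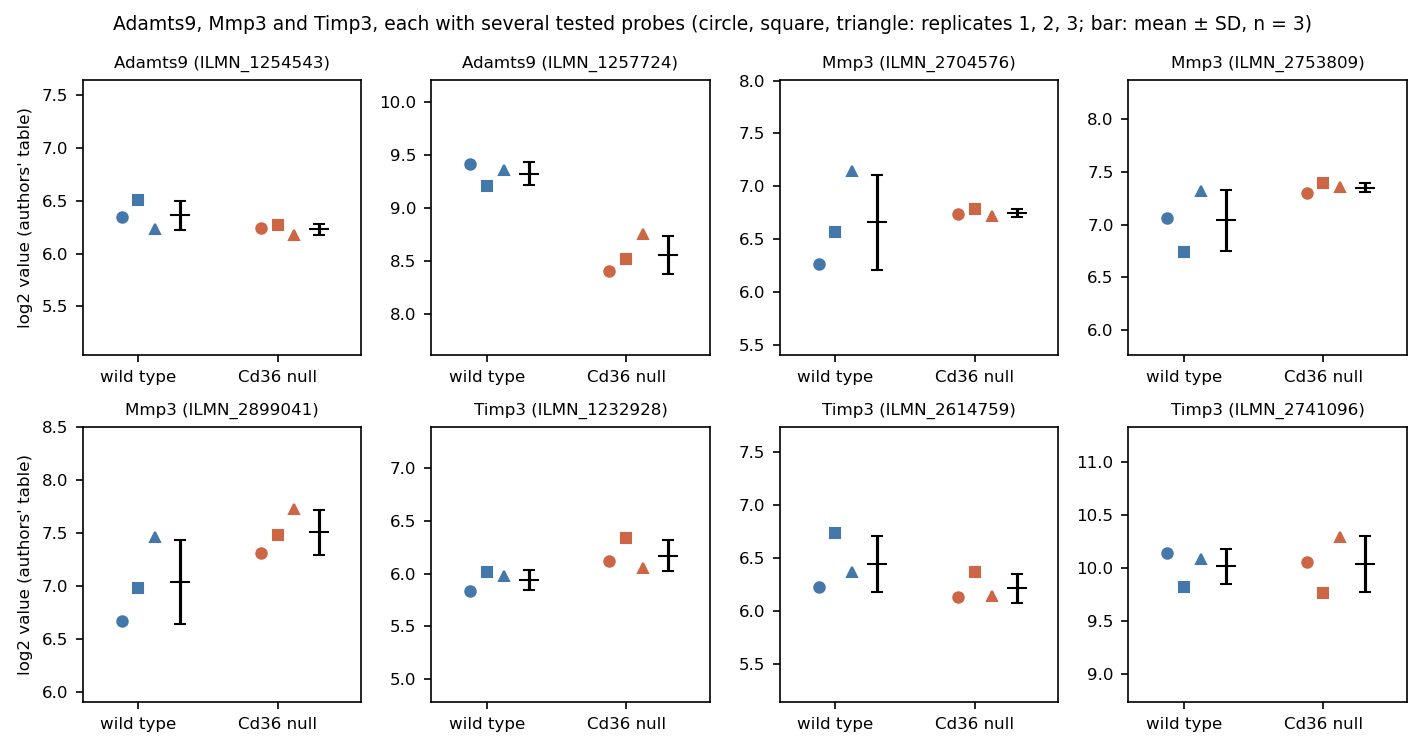
Log2 values on each array for the tested probes of Adamts9, Mmp3 and Timp3, with a separate y axis per probe, symbols for replicates 1 to 3 and mean ± SD (n = 3). The genotypes are apart for 1 of 2 Adamts9 probes, and the 3 probes of Timp3 differ by -0.23, 0.02 and 0.23.

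Of the other Adamts genes with a tested probe, Adamts15, a versican-cutting member, differed by -0.15 (adjusted p = 0.602). Adamts1, known for cutting versican and aggrecan, had probes at -0.18 and -0.09. Adamts7 was detected on 0 of 3 wild type and 3 of 3 null arrays and did not pass (adjusted p = 0.426). Its null mean was at least 1.06-fold higher, a bound that takes no account of the spread between arrays. Adamts10, Adamts13, which cuts von Willebrand factor, and Adamts20 differed by -0.02 to 0.01 near background. Adamts3, Adamts4, Adamts6, Adamts8, Adamts14, Adamts16, Adamts17, Adamts18 and Adamts19 had no tested probe.

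Promoter sequence was available for 44 of the 73 genes, from RefSeq on build GRCm38.p6, and the 250 bases before the start were searched on both strands. The letters searched were TGANTCA for AP-1, GGGCGG for a GC box and TATAAA for a TATA box, which cannot overlap each other. The first 4 sequences shown precede the genes that rose or fell and held a GC box. Adam23 and Adamts12 held none of the letters searched and are not shown, and Mmp2 had no promoter sequence. The last sequence is shown because Mmp3 belongs to a run of neighbouring Mmp members on chromosome 9. Of these members 3 had a tested probe and none passed. Capitals mark AP-1, GC box and TATA box letters, read 5′ to 3′ along the gene's strand.
Mmp14 promoter, chr14:54431348-54431597, plus strand: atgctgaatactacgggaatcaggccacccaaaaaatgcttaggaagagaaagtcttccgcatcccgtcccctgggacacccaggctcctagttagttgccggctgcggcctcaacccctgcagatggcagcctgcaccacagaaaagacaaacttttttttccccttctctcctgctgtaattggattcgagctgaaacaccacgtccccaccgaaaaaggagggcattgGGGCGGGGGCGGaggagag
Timp2 promoter, chr11:118355412-118355661, minus strand: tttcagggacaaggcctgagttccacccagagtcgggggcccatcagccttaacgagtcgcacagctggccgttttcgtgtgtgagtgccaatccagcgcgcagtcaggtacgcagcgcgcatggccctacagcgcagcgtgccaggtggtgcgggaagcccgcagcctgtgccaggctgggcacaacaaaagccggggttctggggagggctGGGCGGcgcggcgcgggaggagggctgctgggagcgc
Timp1 promoter, chrX:20869916-20870165, plus strand: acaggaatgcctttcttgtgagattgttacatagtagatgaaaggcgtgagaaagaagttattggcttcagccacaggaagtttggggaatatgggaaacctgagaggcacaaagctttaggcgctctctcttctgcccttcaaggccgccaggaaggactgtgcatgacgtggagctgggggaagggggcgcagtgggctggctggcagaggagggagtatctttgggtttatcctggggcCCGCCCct
Adamts9 promoter, chr6:92943535-92943784, minus strand: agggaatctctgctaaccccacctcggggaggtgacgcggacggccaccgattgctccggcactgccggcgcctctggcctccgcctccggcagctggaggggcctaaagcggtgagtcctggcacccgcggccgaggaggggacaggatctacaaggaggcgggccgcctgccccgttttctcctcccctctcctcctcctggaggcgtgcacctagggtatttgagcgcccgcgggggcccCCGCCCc
Mmp3 promoter, chr9:7445572-7445821, plus strand: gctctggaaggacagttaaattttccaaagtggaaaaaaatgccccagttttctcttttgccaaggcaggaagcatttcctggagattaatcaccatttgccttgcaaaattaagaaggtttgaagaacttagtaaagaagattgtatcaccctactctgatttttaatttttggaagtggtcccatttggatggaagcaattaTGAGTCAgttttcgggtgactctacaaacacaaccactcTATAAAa

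Of the 6 genes that rose or fell and had a promoter sequence, 4 held a GC box, with 2 copies before Mmp14, and 0 held the AP-1 or TATA box letters. Of the 15 members with a promoter sequence and a tested probe that did not pass, 9 held a GC box, 3 the AP-1 letters and 4 the TATA box letters. Of the 46 member promoter windows 39.1% held a GC box, 21.7% the AP-1 letters and 26.1% the TATA box letters. Over all 32851 promoter windows 32.7% held a GC box, 6.75% the AP-1 letters and 12.4% the TATA box letters. On chromosome 9 lie 8 neighbouring members in the RefSeq order, namely Mmp13, Mmp1b, Mmp3, Mmp1a, Mmp10, Mmp8, Mmp20 and Mmp7. Mmp12 was left out of the members and so was not looked at here. Of the 8, 7 held the AP-1 letters, 3 had a tested probe and 0 passed in limma, with 1 at an unadjusted p under 0.05. A match of letters is not a site shown to be used, and no match says only that these letters are not in this window.

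Fibroblast and macrophage markers rose in null tissue as well. Of 10 fibroblast and adipocyte progenitor markers 6 rose and 0 fell, and their mean log2 level was 8.57 to 8.72 in wild type and 9.29 to 9.40 in null tissue. Pdgfra, a receptor of these progenitors, rose by 0.82 log2 (adjusted p = 0.00535), while Pdgfrb differed by -0.23 (adjusted p = 0.554). Of 9 tested macrophage markers 7 rose and 0 fell, with mean levels of 7.53 to 7.70 and 8.46 to 8.55 over the 11 of 12 listed genes on the array, of which Itgam was detected on no array. Of 7 tested liver markers 6 rose, with Alb and Fgb detected on no array. In bulk tissue, more cells of a type and more RNA per cell cannot be told apart, and the part of these cell types in the differences of Mmp2, Mmp14, Timp1, Timp2, Adam23, Adamts12 and Adamts9 was not tested.

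Of 9 tested muscle markers, 6 tested endothelial markers, 5 tested smooth muscle and pericyte markers and 2 tested neutrophil markers 0 passed in limma, where 0, 3, 1 and 1 had an unadjusted p under 0.05. Of 5 tested lymphocyte markers 1, Cd3e, rose by 0.56 log2 (adjusted p = 0.0399), and in limma 4 were higher at an unadjusted p under 0.05. Ms4a1 and Cd4 were detected on no array, nor were Kdr of the endothelial and Cnn1 of the smooth muscle list. The neutrophil markers Camp, Mpo, Ltf and Cxcr2 were detected on no array. The mean log2 level of the 8 listed neutrophil markers was 6.13 to 6.17 in wild type and 6.16 to 6.30 in null tissue. All 8 called member probes passed without null replicate 1, without null replicate 3 and without wild type replicate 3, with differences of 0.76 to 1.44 for the 7 that rose and of -0.87 to -0.69 for Adamts9.

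**Figure D4:**
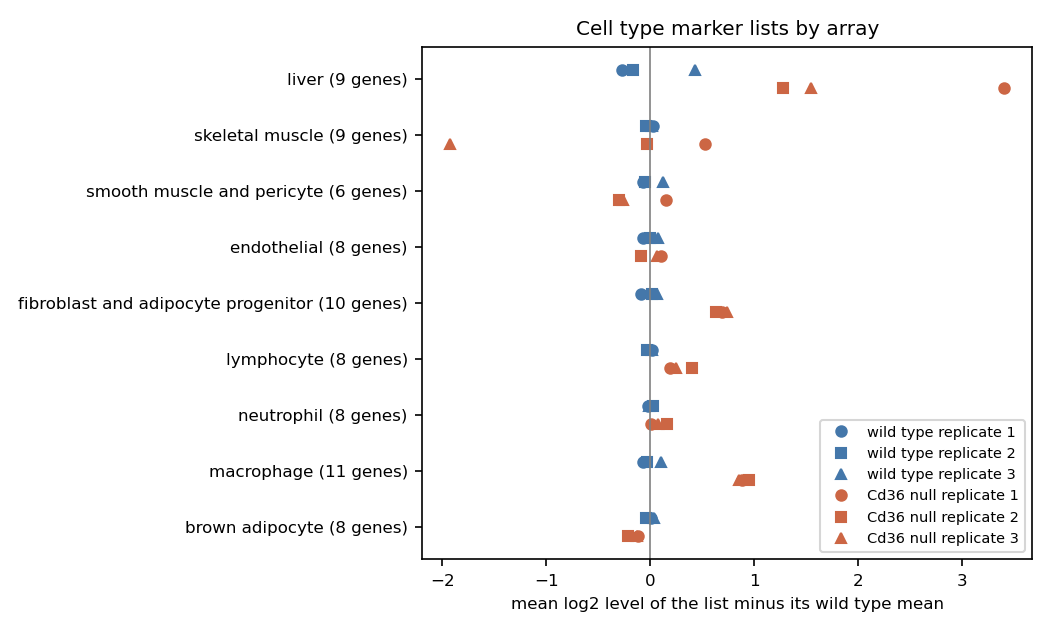
Mean log2 level of each cell type marker list on each array, less the list's wild type mean (x axis), with symbols for replicates 1 to 3. The null arrays lie to the right for the fibroblast, macrophage and liver lists and, less far, for lymphocytes, and null replicate 3 lies far to the left for skeletal muscle.

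Of 78 genes that regulate, activate or are cut by these proteases 71 were on the array and 46 were tested, and 6 of them, 5 substrates and the docking receptor Cd44, rose. In limma 0 fell, with 14 higher and 1 lower at an unadjusted p under 0.05, and the median difference was 0.10 log2 over the tested genes. Of all tested probes 5.36% rose and 2.85% fell, while each gene of this list counts by its brightest tested probe only. Vcam1, a leukocyte adhesion molecule shed by ADAM17, read 6.69, 6.69 and 7.24 in wild type and 7.82, 7.88 and 8.24 in null tissue, a rise of 1.11 ± 0.18 (SE, adjusted p = 0.00546). Cd44, a hyaluronan receptor that docks MMP9 and is itself shed, rose by 0.99 ± 0.14 (adjusted p = 0.00282), although its 3 tested probes ran from -0.12 to 0.99. The shed receptors Axl and Csf1r rose by 0.70 and 0.79 (adjusted p = 0.00961 and 0.0216). The 2 tested probes of Csf1r ran from 0.36 to 0.79, and Csf1r is also a macrophage marker of the list above. The shed chemokines Cx3cl1 and Cxcl16 rose by 0.57 and 0.59 (adjusted p = 0.0493 and 0.0465). The 6 became 3 when the first or second wild type array, or the second null array, was left out.

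The activators and partners did not pass. The precursor-cutting convertases Furin, Pcsk6 and Pcsk7 differed by -0.01, 0.37 and -0.30, and Pcsk6 had an adjusted p of 0.0867. The other of 2 tested Furin probes differed by -0.19. The membrane-anchored inhibitor Reck differed by -0.03 on the brighter of 2 tested probes and by 0.26 on the other. The procollagen protease Bmp1 differed by 0.30 (adjusted p = 0.320) on its brightest of 3 tested probes, which ran up to 0.52. The ADAM17 partners Rhbdf1, Rhbdf2 and Frmd8 differed by -0.14, -0.03 and 0.06. Of 8 tested ADAM partners and 5 tested genes of plasminogen activation 0 passed in limma, where 0 and 1 had an unadjusted p under 0.05. Plg, plasminogen, a liver product, read 5.78, 5.81 and 5.88 in wild type and 8.08, 6.27 and 6.24 in null tissue. It was highest on the null array with the highest liver level and did not pass (adjusted p = 0.164). Its null mean was at least 1.70-fold higher, a bound that takes no account of the spread between arrays. Without that highest array the bound was 1.12-fold.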

How the data were processed

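RNA from brown adipose tissue of wild type and Cd36 null mice was hybridised to Illumina bead arrays, 3 arrays per genotype. The deposited scanner table holds an intensity per probe on a linear scale, not normalised between arrays, with a detection p-value beside it in the deposited file. A second table by the authors holds log2 values, and limma is named, without a version, in the submitters' processing notes. How that table was made is not stated there. The table differed from neqc with an offset of 50 by at most 0.024 log2, and its column medians were 5.92 to 5.93.

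That log2 table was compared between genotypes with lmFit and eBayes (limma 3.58.1, R 4.3.3) over the 17912 probes detected (p under 0.05) on 3 or more arrays, with Benjamini-Hochberg adjustment over all of them. Every adjusted p comes from this moderated two-sided test, or from its refit where a setting is named. Between 16929 and 17035 probes were detected on wild type arrays and 18139 to 19199 on null arrays, and precision is limited by having 3 arrays a group. Of the 45267 probes, 34875 had 1 gene symbol, 18 had several and 10374 were not listed in the annotation, and 73 of 73 member symbols were in the RefSeq table of GRCm38.p6. Coordinates are given only for RefSeq promoters, as no build is named in the deposited tables.

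All members past the threshold are given by array, all tested members by their difference, and genes of the protease and marker lists by their tested probe of highest mean. The members and lists were chosen with earlier results of these data known. The fit was tested on simulated data. Alternatives were neqc with an offset of 16, no background correction, and only array medians aligned (nec, offset 16, without quantile normalisation). Further ones were other filters, trend and robust estimation, array weights, a replicate block and leaving out each array. Medians aligned at an offset of 50 were added after seeing the data.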

Additional observations from a re-analysis of the deposited data

How the results depend on the processing

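Of the 8 member probes that rose or fell, those of Mmp14, Timp2, Adamts12, Adamts9 and Timp1 (ILMN_2769918) passed under every alternative in which they were tested. Adam23, Mmp2 and the other Timp1 probe did not pass with no filter (adjusted p = 0.0503, 0.0678 and 0.0890). Of the 33 member probes that did not pass, 5 passed under at least 1 alternative, and 14 changed sign under at least 1, none of them past the threshold with the other sign. With no filter 4 member probes rose and 1 fell, and over all probes 560 rose and 289 fell. With array weights 11 member probes rose and 2 fell, and over all probes 1485 rose and 1141 fell. Without background correction 2 member probes fell, and with medians aligned at an offset of 16, 228 probes in all fell. With medians aligned at an offset of 50, chosen after seeing the data, 1508 probes in all rose and 247 fell, and 10 protease pathway genes rose. With each array left out in turn, member probes that rose numbered 6 to 9 and those that fell 1 to 2, all probes that rose 490 to 907 and those that fell 180 to 434, and protease pathway genes that rose 3 to 7 and those that fell 0 to 1. Over all probes, the numbers that rose and fell were 584 and 272 without wild type replicate 1, 490 and 180 without wild type replicate 2, and 630 and 222 without null replicate 2. Timp4 was the second member probe to fall in each setting with 2. The replicate numbers were not shown to pair the samples, since same-numbered arrays had correlations of their deviations of 0.12, -0.02 and 0.05. With the replicate block 7 member probes rose and 1 fell, and over all probes 884 rose and 442 fell. The chip as a block was not run, because the file headers give none. Probes near background carry shrunken differences.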
